A study of Mus musculus with 4 samples.

Results

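Ribosomal protein genes encode the protein part of the cell's translation machines. The genes described here are the rows of the expression table whose mouse symbol follows the systematic names of ribosomal proteins (Rpl and Rps for the cytosolic ribosome, Mrpl and Mrps for the mitochondrial ribosome, with Rplp0, Rplp1, Rplp2 and Rpsa) and whose annotated gene is protein coding. They number 158 of the 48526 genes in the table. The cytosolic ribosome has 80 of them, 49 of the large and 31 of the small subunit, and the mitochondrial ribosome has 78, 49 of the large and 29 of the small subunit. Another 2 genes whose names fit the pattern are annotated as pseudogenes and were left out. The rule reads names and no measured value.

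RNA came from lamina propria mononuclear cells (LPMCs), cells isolated from the mouse gut wall beneath its epithelial lining. In the DKO group, 2 samples, the mice had been given CD4 cells deficient in both Hobit and Blimp, and the labels record colitis with mild signs. In the WT group, 2 samples, the mice had been given wild-type CD4 cells, and the labels record colitis with pronounced signs. Hobit and Blimp-1 are related transcriptional repressors of tissue-resident lymphocytes. The double knockout is that of the transferred cells, not of every cell in a sample, and the strain, age and sex of donors and recipients are not stated in the labels. The groups differ in transferred cells and in severity together, and these cannot be told apart. Values are rlog, a log2 expression value that DESeq2 shrinks towards each gene's mean, so that differences are understated, most in weakly expressed genes.

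A ribosome has a small subunit, which reads the messenger RNA, and a large subunit, which joins the amino acids. Cytosolic ribosomes make nearly all cell proteins, and the messenger RNAs of their own proteins begin with a C and a run of pyrimidines, the 5′ terminal oligopyrimidine (TOP) motif, through which mTOR and LARP1 control their translation. Mitochondrial ribosomes make only the few respiratory chain proteins encoded by mitochondrial DNA, and all of their own proteins are encoded in the nucleus and imported. Activated lymphocytes are known to raise ribosome production as they grow and divide.

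The start sites of these genes show the features of the families. The following stretches run from 50 bases before to 20 bases from the RefSeq transcription start on GRCm38.p6, 5′ to 3′ on the coding strand, and capitals mark a pyrimidine run near the start or a match, on either strand, to CCGGAAG (an ETS-type site) or to GCGC, any 1 base, then TGCGC (an NRF1-type site). The first group is shown because their starts hold a C followed by at least 4 pyrimidines. Rps6 encodes the protein that S6 kinase phosphorylates downstream of mTOR, and Fau encodes the small-subunit protein RPS30 with a ubiquitin-like leader.
Rps6, chr4:86857348-86857417, minus strand: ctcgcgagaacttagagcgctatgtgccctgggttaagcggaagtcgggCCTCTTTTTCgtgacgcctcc
Rps27, chr3:90213629-90213698, minus strand: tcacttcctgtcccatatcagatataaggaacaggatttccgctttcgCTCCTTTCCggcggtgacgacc
Rpl35, chr2:39005112-39005181, minus strand: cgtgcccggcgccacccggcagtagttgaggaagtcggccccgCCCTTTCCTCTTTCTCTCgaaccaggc
Rpl38, chr11:114668530-114668599, plus strand: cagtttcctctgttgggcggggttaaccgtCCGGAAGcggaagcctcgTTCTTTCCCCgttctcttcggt
Rps10, chr17:27635225-27635294, minus strand: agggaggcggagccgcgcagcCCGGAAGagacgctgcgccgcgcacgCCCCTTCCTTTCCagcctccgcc
Fau, chr19:6057897-6057966, plus strand: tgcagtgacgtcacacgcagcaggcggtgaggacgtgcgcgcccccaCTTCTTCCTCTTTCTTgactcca

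The next group is shown because Rps16 and Mrpl33 are the genes that passed the test below, Mrpl14 came near it, and Rpl31 has a pyrimidine run away from the annotated start. Mrpl33 has an alternative start here, far inside the span that GENCODE gives the gene.
Rpl31, chr1:39367801-39367870, plus strand: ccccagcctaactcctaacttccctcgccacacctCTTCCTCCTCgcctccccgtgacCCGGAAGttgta
Rps16, chr7:28350639-28350708, plus strand: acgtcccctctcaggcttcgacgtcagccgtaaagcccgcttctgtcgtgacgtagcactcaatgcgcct
Mrpl33, chr5:31613901-31613970, plus strand: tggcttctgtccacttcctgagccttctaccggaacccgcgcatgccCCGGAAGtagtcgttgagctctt
Mrpl14, chr17:45686299-45686368, plus strand: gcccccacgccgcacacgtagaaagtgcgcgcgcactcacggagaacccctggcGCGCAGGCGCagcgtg
Windows from 250 bases before to 50 bases after the start were at hand for 129 of the 158 genes, 147 windows in all. A C followed by at least 4 pyrimidines stood at the annotated start in 13 of 72 cytosolic windows (18.1%) and in 0 of 75 mitochondrial windows, against 2.505% of all 32851 windows. A run of at least 8 pyrimidines within 15 bases of the start was found in 37.5% of cytosolic windows, 12% of mitochondrial windows and 12% of all windows. CCGGAAG, on either strand, was found in 36.1% of cytosolic and 34.7% of mitochondrial windows, against 8.86% of all. The NRF1-type sequence was more frequent in the mitochondrial windows, at 17.3%, than in the cytosolic ones, at 6.94%, against 4.603% of all. AAGATGGCG, a YY1-type sequence, stood in 10.7% of mitochondrial and 6.94% of cytosolic windows, against 1.40% of all. No window held matches of different motifs that overlapped. These matches describe letters near annotated starts and do not show binding, and annotated starts can be off by several bases.

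The test was limma on the rlog values of the 13528 genes whose mean rlog in the 4 samples reached 4, with Benjamini-Hochberg adjustment over all of them and a threshold of 0.05. It took in 154 of the 158 genes, 77 cytosolic and 77 mitochondrial. Of the 4 below the minimum, Rpl10l, a testis paralogue of Rpl10, and Mrpl53 were listed at 0 in every sample. Rpl3l, the muscle paralogue of Rpl3, stood at 2.69 and 2.496 in DKO and at 2.64 and 2.71 in WT. Rpl24 stood at 3.53 and 3.30 in DKO and at 3.43 and 3.46 in WT. Rpl24 and Mrpl53 share same-strand exon sequence with another annotated gene (Gm28037, listed at 0, and Gm42688, at 3.35 to 3.38), and the labels do not say how reads in shared exons were counted. Such an overlap was found for 35 of the 158 genes, most often with a small RNA gene inside the host gene, 27 of them cytosolic and 8 mitochondrial.

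Ribosomal protein messenger RNAs were nearly all a little lower in the DKO samples, and most of these differences did not pass the test. The difference of means was negative for 77 of 77 cytosolic genes and 72 of 77 mitochondrial genes, against 55.3% of all tested genes. The median difference was -0.23 for the cytosolic genes (a level 14.98% lower once taken out of the log) and -0.12 for the mitochondrial genes (8.13% lower), against -0.022 for all tested genes. Both DKO samples lay below both WT samples for 64 cytosolic genes (83.1%) and 52 mitochondrial genes (67.5%), against 30.3% of all tested genes. After quantile normalization, which forces the 4 samples to the same distribution, 61 of the 77 cytosolic differences were negative with a median of -0.088, and 74 of the 77 mitochondrial ones were negative with a median of -0.13.

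In limma with Benjamini-Hochberg adjustment, 2 of the 154 genes (1.30%) were called, both lower in DKO, and 0 were called higher. Over all tested genes, 14.8% were called, 4.85% as lower and 9.92% as higher in DKO. The share of called ribosomal protein genes was below the background in each direction. At an unadjusted p under 0.05 there were 33 cytosolic and 11 mitochondrial genes, together 44 of 154 and all of them lower in DKO, against 12.1% of all tested genes that were lower at that p (26.4% in either direction). The median SE of a cytosolic difference was 0.109 and that of a mitochondrial difference 0.0927. The call with 2 samples a group rests on a spread borrowed across genes, and an exact permutation test of a single value cannot go below p = 0.3333. With a robust variance estimate 3 cytosolic genes (Rps16, Rps9, Rps10) and 2 mitochondrial genes (Mrpl33, Mrpl14) were called lower, against 5.46% of all genes, and with no filter on low values 0 were.

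**Figure D1:**
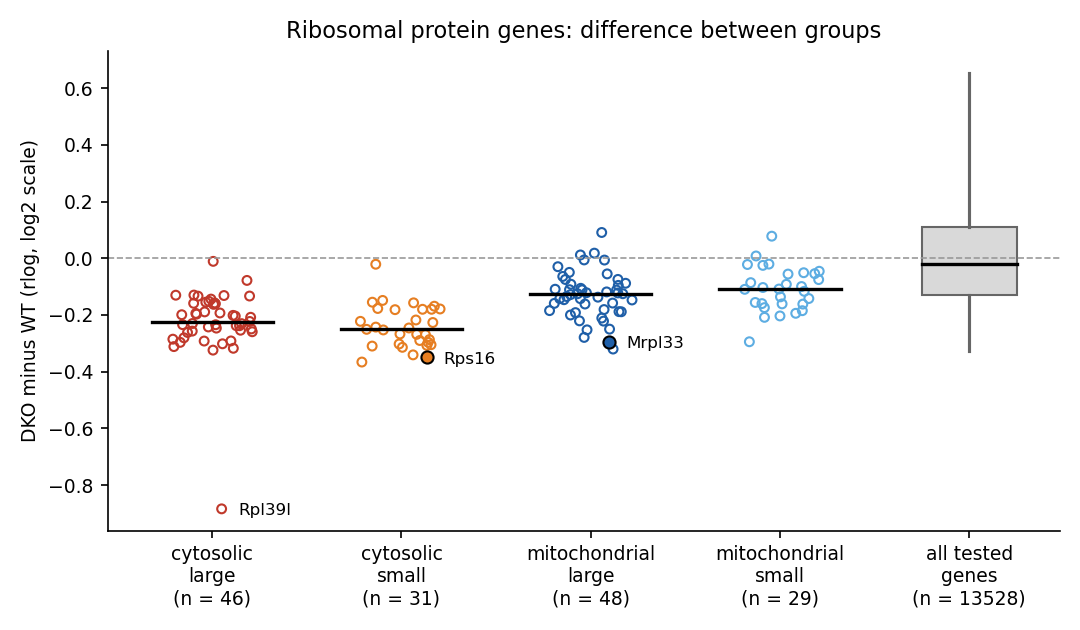
Difference between DKO and WT (rlog, log2 scale) for each tested gene of the 4 classes, with the class median as a black bar, and a box for all 13528 tested genes (box, quartiles; whiskers, 5th to 95th percentile). Filled points are Rps16 and Mrpl33, the 2 genes called lower; the cytosolic medians are -0.23 and -0.25, the mitochondrial ones -0.13 and -0.11.

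Rps16 and Mrpl33 were the genes called. Rps16, a small-subunit protein whose tail reaches the decoding site (ENSMUSG00000037563, GRCm38 chromosome 7, 28350652 to 28353155), stood at 12.63 and 12.78 in DKO and at 12.97 and 13.13 in WT. The DKO samples were the lower ones without overlap (difference -0.35, SE 0.0997, limma adjusted p = 0.0375). Mrpl33, a small protein of the mitochondrial large subunit (ENSMUSG00000106918, chromosome 5, 31596935 to 31664384), stood at 9.47 and 9.40 in DKO and at 9.66 and 9.79 in WT. Here too the groups did not overlap (difference -0.29, SE 0.0848, limma adjusted p = 0.0393). Its exons overlap those of Gm43809, which was listed at 0. After quantile normalization neither Rps16 nor Mrpl33 passed (limma adjusted p = 0.144 and 0.0911, differences -0.21 and -0.25). Neither gene passed without WT replicate 2 (limma adjusted p = 0.364 for Rps16 and 0.354 for Mrpl33, differences -0.27 and -0.23) or without WT replicate 1 (0.0621 and 0.0662). Nor did Rps16 without DKO replicate 1 (limma adjusted p = 0.0806) or Mrpl33 without DKO replicate 2 (0.0614).

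In the small cytosolic subunit (31 genes), the median difference was -0.25. Both DKO samples lay below both WT samples in 26 genes (83.9%, against 30.3% of all tested genes). Rps9, which sits near the messenger RNA entry channel, stood at 14.32 and 14.44 in DKO and at 14.63 and 14.86 in WT, a difference of -0.37 (limma adjusted p = 0.0828). Rps28 stood at 11.40 and 11.62 in DKO and at 11.70 and 12.002 in WT (-0.34, limma adjusted p = 0.0693). Rps10, whose start site is shown above, stood at 12.44 and 12.60 in DKO and at 12.73 and 12.94 in WT (-0.31, limma adjusted p = 0.0673). In these 3 genes the groups do not overlap and the adjusted p misses the threshold.

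Rps6, the S6 kinase substrate, stood at 13.34 and 13.40 in DKO and at 13.48 and 13.60 in WT (-0.17). Rpsa, the laminin receptor precursor that is a small-subunit protein, stood at 14.70 and 14.81 in DKO and at 14.90 and 15.04 in WT (-0.22), and its difference was 0.0048 after quantile normalization. The 4 genes of messenger RNA entry and decoding (Rps2, Rps3, Rps15, Rps23) had a median difference of -0.18, and the groups overlapped in 1 of them. A list of 9 genes from both subunits, Rps10, Rpl5 and Rpl11 among them, is known for mutations in Diamond-Blackfan anaemia, an inherited failure of red cell production in people. The 9 had a median difference of -0.22, and 5 of them had both DKO samples below both WT samples. That share was 83.1% over the tested cytosolic genes and 30.3% over all tested genes.

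In the large cytosolic subunit, 46 tested genes had a median difference of -0.23. Both DKO samples lay below both WT samples in 38 (82.6%, against 30.3% of all tested genes). Rpl36 stood at 11.93 and 12.08 in DKO and at 12.20 and 12.36 in WT (-0.28, limma adjusted p = 0.0728). Rpl38, known from mice for its part in translating Hox messenger RNAs, stood at 11.65 and 11.80 in DKO and at 11.89 and 12.16 in WT (-0.30, limma adjusted p = 0.0818). Rpl27 stood at 11.55 and 11.72 in DKO and at 11.80 and 12.05 in WT (-0.29, limma adjusted p = 0.0819). These are the genes of the subunit with the smallest p, together with Rpl31 at -0.26, and none passed.

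The stalk proteins, which recruit elongation factors, were lower without overlap, as were 83.1% of the tested cytosolic genes. Rplp0 stood at 14.80 and 14.96 in DKO and at 15.05 and 15.22 in WT, Rplp1 at 14.02 and 14.13 in DKO and at 14.21 and 14.45 in WT, and Rplp2 at 13.50 and 13.64 in DKO and at 13.77 and 14.02 in WT. Their differences were -0.26, -0.25 and -0.32 (limma adjusted p from 0.0937 to 0.2544). Rpl5 and Rpl11, which bind the 5S ribosomal RNA and can hold Mdm2, had differences of -0.16 and -0.23, and Rpl5 overlapped between the groups. A list of 7 genes of the peptide exit tunnel, which does not hold Rpl4, had a median of -0.23. Both DKO samples lay below both WT samples in 7 of 7. That share was 83.1% over the tested cytosolic genes and 30.3% over all tested genes. Rpl4 had a difference of -0.078, and its groups overlapped.

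The smallest differences of the large subunit belonged to Rpl10 and Rpl4. Rpl10, an X-linked protein that joins the subunit last, stood at 13.71 and 13.66 in DKO and at 13.67 and 13.72 in WT (-0.011). Rpl4 stood at 14.98 and 15.09 in DKO and at 15.09 and 15.14 in WT (-0.078), and its sign turned after quantile normalization (0.13). Both genes host small RNA genes, and their groups overlapped. Rpl39l, a testis-enriched paralogue of Rpl39, had the largest difference, -0.88, with 4.06 and 4.07 in DKO and 4.09 and 5.81 in WT. That value rests on WT replicate 2 alone (limma adjusted p = 0.1683), since the other 3 samples lie close together. Rps27l, a paralogue of Rps27 that p53 induces, stood at 9.70 and 9.67 in DKO and at 9.77 and 9.96 in WT (-0.18).

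In the mitochondrial large subunit, 48 tested genes had a median difference of -0.13, negative in 45. Mrpl14 stood at 7.66 and 7.87 in DKO and at 8.08 and 8.08 in WT (-0.32, limma adjusted p = 0.0686). Mrpl28 stood at 8.69 and 8.62 in DKO and at 8.84 and 9.03 in WT (-0.28, limma adjusted p = 0.0780). Neither overlapped between the groups and neither passed. Mrpl58, a peptidyl-tRNA hydrolase that frees stalled chains, stood at 8.54 and 8.90 in DKO and at 8.91 and 8.96 in WT (-0.22). Mrpl45, which anchors the ribosome to the inner membrane, had a difference of -0.13, and the stalk proteins Mrpl10, Mrpl11 and Mrpl12 had -0.075, -0.13 and -0.18.

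In the mitochondrial small subunit, 29 genes had a median difference of -0.11, negative in 27. Mrps28 stood at 7.81 and 8.10 in DKO and at 8.21 and 8.28 in WT (-0.29, limma adjusted p = 0.1135). Mrps12, a protein of the decoding centre, stood at 8.20 and 8.20 in DKO and at 8.34 and 8.37 in WT (-0.16). The classes follow gene names: the proteins of Mrps30 and Mrps18a sit in the large subunit, and that of Mrps36 belongs to the 2-oxoglutarate dehydrogenase complex. Their differences were -0.14, -0.046 and -0.086, and none passed.

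Of all tested ribosomal protein genes, 5 had a difference above 0 as deposited, all of them mitochondrial. Mrpl37 stood at 8.96 and 9.02 in DKO and at 8.94 and 8.86 in WT (0.091), and Mrps6 at 7.90 and 7.91 in DKO and at 7.81 and 7.85 in WT (0.078). These were the only tested ribosomal protein genes with both DKO samples above both WT samples, against 25% of all tested genes. Mrps6 shares exon sequence with the transporter gene Slc5a3, which had a difference of 0.14. Mrpl4, Mrpl49 and Mrps27 had differences of 0.018, 0.012 and 0.0081, with overlapping groups. The sign of Mrpl49 and Mrps27 turned after quantile normalization (-0.020 and -0.035), and that of Mrps27 also after median centring (-0.0020). The sign of all 3 turned without 1 or more single samples.

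Between the subunits of either ribosome the median differences lay closer together than replicates did. The large minus small difference of medians was 0.024 for the cytosolic ribosome and -0.018 for the mitochondrial ribosome, with a pooled SD between replicates of 0.0412 and 0.0388. The cytosolic median lay below the mitochondrial median by 0.11 (-0.11), against a pooled SD between replicates of 0.0544. Within samples, the cytosolic median exceeded the mitochondrial median by 4.74 and 4.80 in DKO and by 4.84 and 4.93 in WT. The gap was smaller in both DKO samples. It turned to 0.042 after quantile normalization, and was -0.034 without WT replicate 2. Per kilobase of transcript, the median mean level was 13.7 for cytosolic and 8.10 for mitochondrial genes on the log2 scale.

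The samples did not carry the difference evenly. The cytosolic median stood at 13.29 and 13.42 in DKO and at 13.53 and 13.70 in WT, and the mitochondrial median at 8.55 and 8.62 in DKO and at 8.69 and 8.77 in WT. WT replicate 2 had the highest value of all 77 tested cytosolic genes, and DKO replicate 1 had the lowest in 55. Between the WT samples the median cytosolic gene differed by 0.19, more than the 0.095 by which DKO replicate 2 lay below WT replicate 1. The median mitochondrial gene differed by 0.065 between the WT samples, and DKO replicate 2 lay 0.065 below WT replicate 1. Without WT replicate 2 the cytosolic median difference was -0.13 and the mitochondrial one -0.098, with 75 of 77 and 67 of 77 negative. In that fit 0 ribosomal protein genes were called (1 had an unadjusted p under 0.05), against 2.4% of all genes called lower. Without DKO replicate 2, 32 cytosolic and 7 mitochondrial genes were called lower, against 9.03% of all genes, and the spread there comes from the WT samples alone. Without WT replicate 1 the count was 4 cytosolic and 1 mitochondrial, against 3.11% of all genes. Without DKO replicate 1 it was 1 and 1, against 5.46%.

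**Figure D2:**
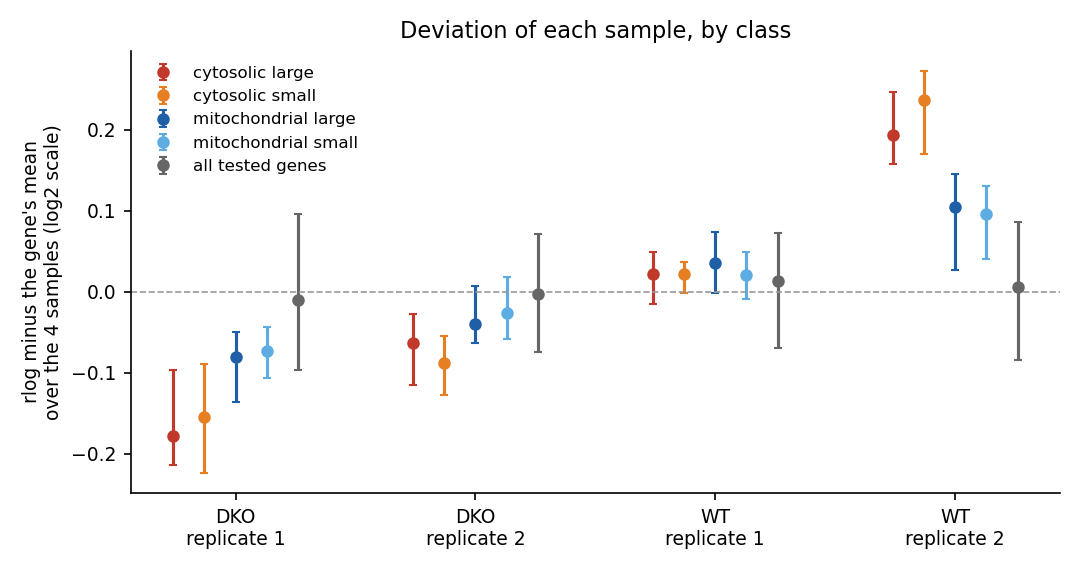
Deviation of each sample from the gene's mean over the 4 samples (rlog, log2 scale), as the median (point) and quartiles (bar) over the tested genes of each class and over all tested genes. The classes lie below 0 in both DKO samples and above 0 in both WT samples, with the largest shift in WT replicate 2.

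Other genes of like level or transcript length were also lower in DKO at the median. Among the other tested genes, the median difference was -0.11 for 481 genes at a mean rlog of 12 to 14 and -0.19 for 65 genes at 14 or more. It was -0.037 for genes from 8 to 10, the range of most mitochondrial ribosomal protein genes. By transcript length it was -0.20 for 50 genes under 500 bases and -0.14 for 605 genes from 500 to 1000 bases. It was -0.072 for 2653 genes from 1000 to 2000 bases, and 0.034 for genes of 4000 bases or more. The median transcript was 878 bases for the cytosolic genes and 1316 bases for the mitochondrial genes, against 2997 bases for all tested genes. After a correction for the trend over transcript length, chosen after seeing the data, the cytosolic median was -0.090 and the mitochondrial one -0.053, negative in 73 of 77 and 54 of 77 genes, with 0 called (-0.24 for Rps16 and -0.10 for Mrpl33). The part of level, transcript length and RNA quality in the result was not tested.

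**Figure D3:**
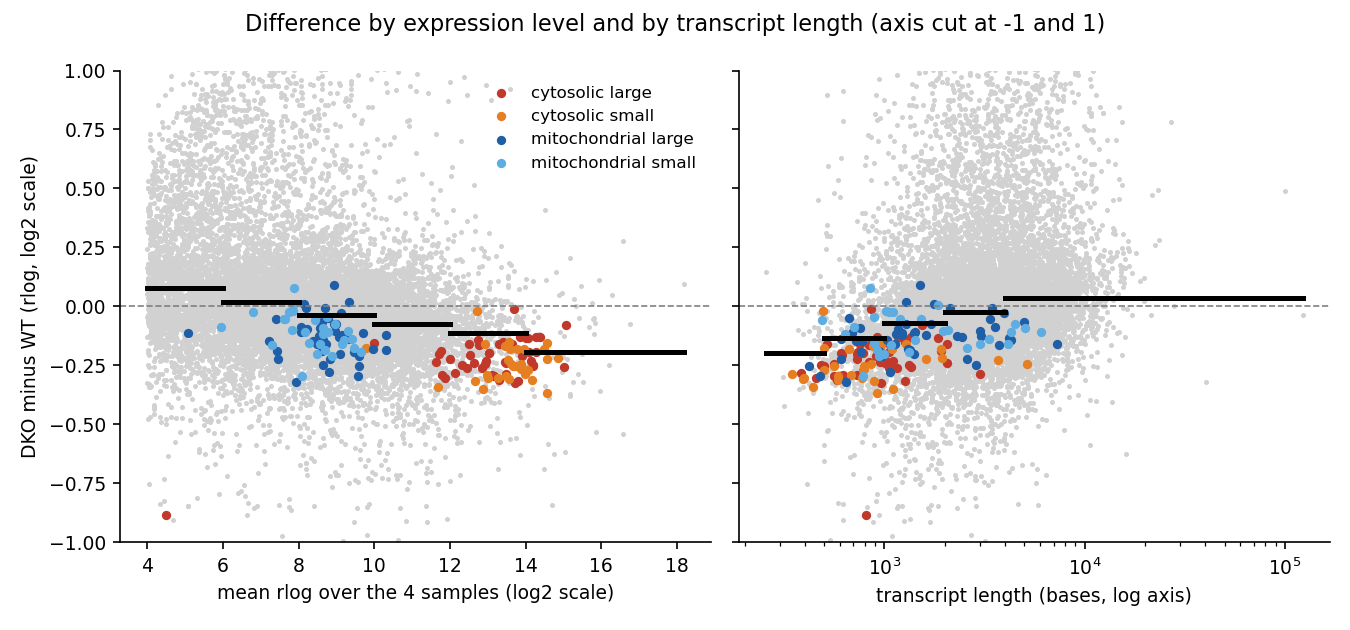
Difference between DKO and WT (rlog) against the mean rlog (left) and against transcript length on a log axis (right), for ribosomal protein genes (coloured) and the other tested genes (grey), with black bars for the median of the other genes in each band. The bars fall to -0.19 at the highest levels and to -0.20 in the shortest transcripts.

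**Figure D4:**
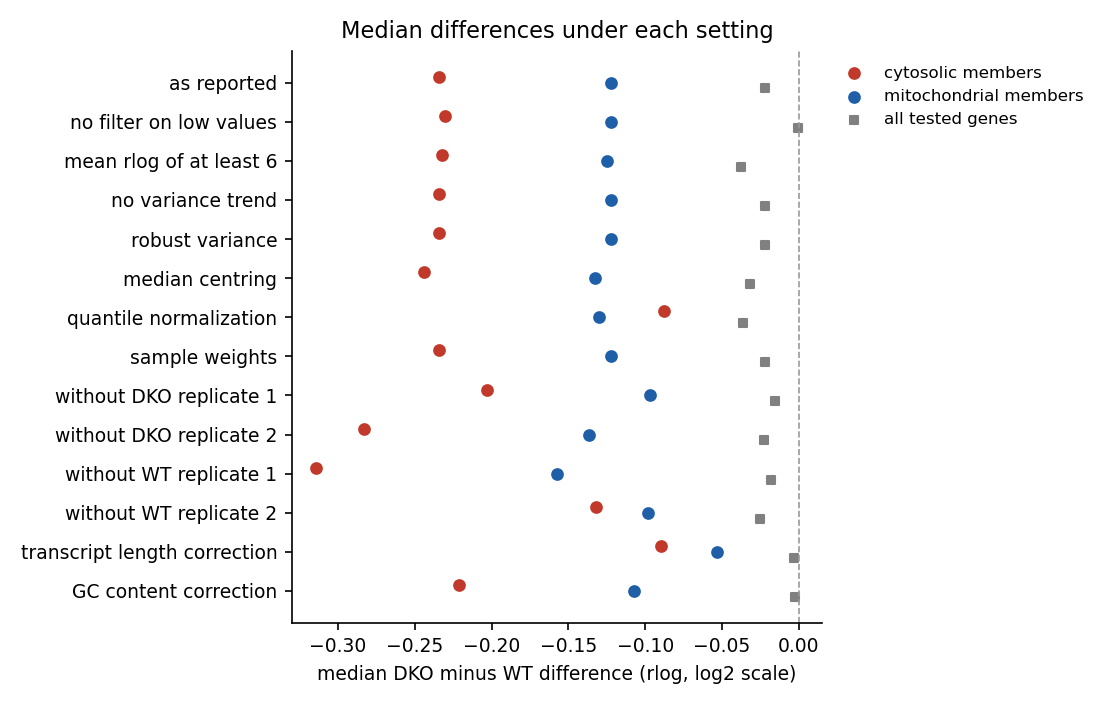
Median difference between DKO and WT over the tested cytosolic genes, mitochondrial genes and all tested genes, as reported and under each other way of processing. Cytosolic and mitochondrial medians stay below 0 throughout, and the cytosolic one shrinks to -0.088 and -0.090 under quantile normalization and transcript length correction.

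Median differences were also set out by start-site feature. Cytosolic genes with a C and at least 4 pyrimidines at a start had a median difference of -0.24 (13 genes), and those without had -0.22 (44 genes). Mitochondrial genes with CCGGAAG had -0.14 (25 genes), and those without had -0.11 (43 genes). Cytosolic genes had -0.2342 with it (25 genes) and -0.2339 without (32 genes). With a pyrimidine run near a start, cytosolic genes had -0.24 (26 genes) and mitochondrial genes -0.11 (9 genes). Without such a run they had -0.22 (31 genes) and -0.13 (59 genes). With the NRF1-type sequence the cytosolic and mitochondrial medians were -0.27 (5 genes) and -0.13 (13 genes). Without it they were -0.23 (52 genes) and -0.12 (55 genes). Mitochondrial genes with AAGATGGCG had -0.048 (8 genes), and those without had -0.12 (60 genes), while cytosolic genes with it had -0.16 (3 genes), and those without had -0.23 (54 genes). No test was made of these descriptions.

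Some parts of both ribosomes carry other names, and 2 of these passed the test. Fau stood at 12.92 and 13.03 in DKO and at 13.30 and 13.46 in WT, and fell (-0.41, SE 0.1001, limma adjusted p = 0.0172). Its neighbour Mrpl49 on chromosome 19 is the gene named above with a difference of 0.012. Gadd45gip1, which encodes a mitochondrial large-subunit protein, stood at 8.05 and 8.18 in DKO and at 8.48 and 8.53 in WT, and fell (-0.39, SE 0.0952, limma adjusted p = 0.0169). Without WT replicate 2 neither passed (limma adjusted p = 0.226 for Fau and 0.121 for Gadd45gip1), nor did Gadd45gip1 without WT replicate 1 (0.0576). Fau also did not pass after quantile normalization (-0.26, limma adjusted p = 0.0843) or after the length correction (-0.26, limma adjusted p = 0.0623). Rack1, a scaffold on the small subunit, stood at 14.56 and 14.64 in DKO and at 14.75 and 14.88 in WT (-0.22, limma adjusted p = 0.2955). Rows whose symbol is a ribosomal protein name followed by -ps, the mark of a pseudogene, numbered 279, and their annotated gene type was not checked. Of the 25 tested, 6 were called lower and 0 higher with a median of -0.23, against 4.85% and 9.92% of all tested genes, and reads of near-identical copies may be split between them and the genes.

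In the lists of ribosome building and translation, the counts below stand against 4.85% of all tested genes called lower and 9.92% called higher. Of 38 tested ribosome biogenesis genes 1 fell and 0 rose, with a median of -0.014, and of 20 subunits and factors of RNA polymerases I and III 0 were called, with a median of -0.014. The gene that fell was Rrp1b, a nucleolar protein, at 9.17 and 9.29 in DKO and at 9.62 and 9.49 in WT (-0.33, limma adjusted p = 0.0303). Of 36 initiation factors 1 fell, with a median of -0.079. It was Eif4e, the cap-binding protein, at 10.71 and 10.85 in DKO and at 11.24 and 11.15 in WT (-0.42, SE 0.0836, limma adjusted p = 0.0056). Without WT replicate 1 the limma adjusted p was 0.244 for Rrp1b and 0.0565 for Eif4e, and without DKO replicate 1 it was 0.0727 for Rrp1b.

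None of the 12 elongation factors and other TOP genes was called (median -0.10), nor of 17 genes of mTOR, Myc and LARP1 signalling (-0.022), of 13 mitochondrial translation factors (-0.013), of 21 mitochondrial ribosome assembly factors (-0.072) or of 17 other mitochondrial genes (-0.12). In these 5 lists 0, 3, 0, 2 and 4 genes had an unadjusted p under 0.05 in limma. Over all tested genes that share was 26.4% in either direction and 12.1% for lower in DKO. Myc, a driver of ribosome production, stood at 10.23 and 10.20 in DKO and at 10.06 and 10.08 in WT (0.14, limma adjusted p = 0.2872). Of 12 genes of the p53 pathway, which free Rpl5 and Rpl11 can set off through Mdm2, Phlda3 and Eda2r rose (0.48 and 0.48) and Cdkn1a and Bax fell (-0.41 and -0.29). Phlda3 and Cdkn1a did not pass without WT replicate 1, nor Cdkn1a without WT replicate 2, and Eda2r did not pass without DKO replicate 1 or either WT sample. Bax also did not pass when either WT sample was left out. After quantile normalization neither Cdkn1a nor Eda2r passed (limma adjusted p = 0.0548 and 0.0866), nor did Eda2r after the length correction (0.0598). None of 14 cell division genes was called (median -0.19). Of the 14, 5 had an unadjusted p under 0.05 in limma, to be set against the same shares of all tested genes.

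**Figure D5:**
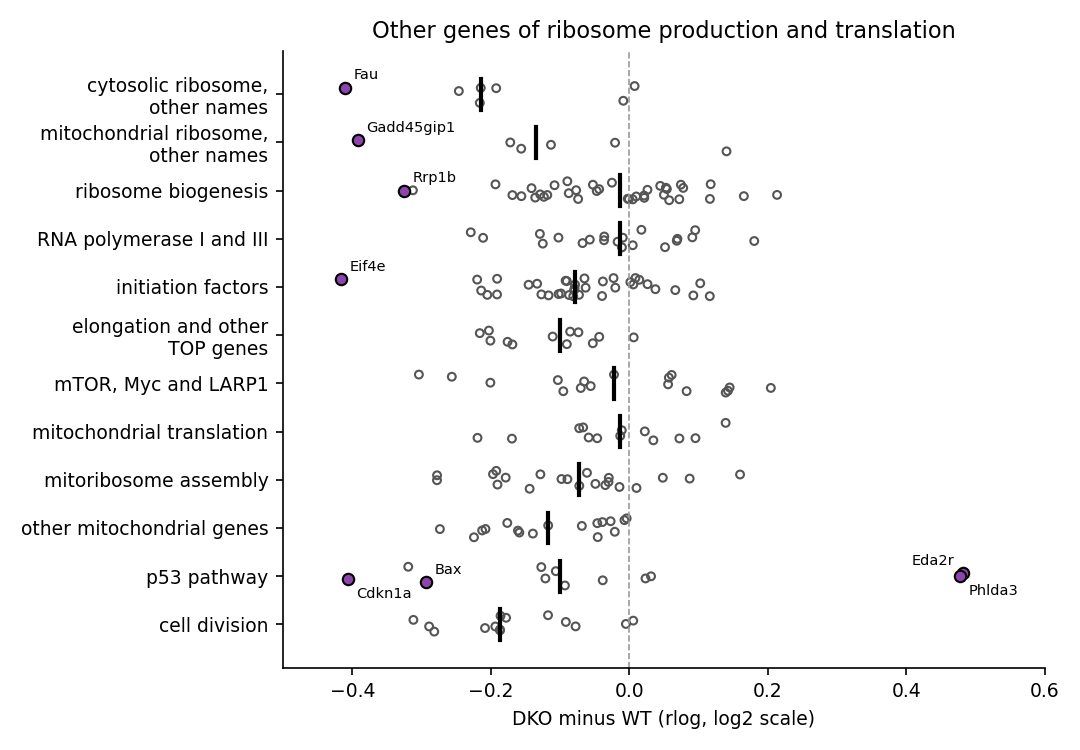
Difference between DKO and WT (rlog) for each tested gene of 12 further lists, one row a list, with the median as a black bar and called genes filled and named. The called genes are Fau, Gadd45gip1, Rrp1b, Eif4e, Cdkn1a and Bax, lower, and Phlda3 and Eda2r, higher.

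Markers of several cell types differed between the groups. Over all tested genes, 4.85% were called lower and 9.92% higher, and the marker counts are to be read beside these shares. All 14 neutrophil markers fell (median -1.39), with a summed level (log2 of the sum of the unlogged values) of 14.78 and 14.32 in DKO and of 15.89 and 15.97 in WT. Of 9 macrophage markers 8 fell, with a summed level of 14.17 and 14.40 in DKO and of 14.76 and 14.72 in WT. Of 7 monocyte markers 2 fell (Chil3, -1.504, and Ly6c2, -0.85) and 1 rose (Vcan, 0.69), with a summed level of 14.06 and 13.79 in DKO and of 14.18 and 14.13 in WT. All 13 fibroblast and muscle markers rose (median 1.07), at 16.19 and 16.08 in DKO and at 15.20 and 15.02 in WT, and all 10 endothelial markers rose (median 1.24), at 12.48 and 12.58 in DKO and at 11.61 and 11.46 in WT. Of 11 T cell markers 1 fell (median -0.13), with a summed level of 15.05 and 15.13 in DKO and of 15.18 and 15.27 in WT. T cell and macrophage markers were thus present beside markers of neutrophils and stromal cells. The label LPMC names mononuclear cells as a whole and no single cell type. Of 8 B and plasma cell markers 2 reached the minimum, and Pax5 was listed at 0. Epithelial markers showed 0 calls of 9, at 14.26 and 14.16 in DKO and at 14.16 and 14.31 in WT. In bulk RNA, fewer cells of a type and less RNA per cell cannot be told apart, and the part of cell makeup in the ribosomal protein differences was not tested.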

How the data were processed

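RNA of 4 LPMC samples was sequenced from stranded libraries, per the labels' protocols. The values used are log2 values that the authors deposited as rlog, per the table's name and the submitters' processing notes. They also list GRCm38, STAR 2.5.4a, featureCounts of Subread 1.5.2, DESeq2, BWA 0.7.14-r1136, cutadapt 1.9.1 and bcl2fastq 2.17.1.14, without roles or settings. Counts were not analysed here, so the depth is unknown. Of the table's columns, 2 match no labelled sample and were not used, though they may have entered the authors' shrinkage. Groups come from the treatment label. Replicate numbers follow the order of entries and pair no samples, and the series' design text calls the samples of a group biological replicates, without saying whether each is 1 animal or a pool. The p-values reflect how these samples vary.

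Symbols, positions and transcript lengths are from GENCODE M21 (48058 of 48526 identifiers matched), and start-site windows are from RefSeq. With R 4.3.3 and limma 3.58.1, group was the only term, with a mean-variance trend (8.9 prior and 2 residual degrees of freedom), two-sided tests and Benjamini-Hochberg adjustment over the 13528 genes. The fit was tested on simulated data with the fitted spread and with genes independent of each other. Shifts that many genes share within a sample were not simulated. Differences are DKO minus WT. Medians of a class carry no test. Members and lists were chosen with earlier results of these data known. Named genes are the up to 4 per class and direction with the smallest p, the highest and lowest of each class, paralogues, up to 3 per list and those with a printed sequence; Bax and genes given for their role were chosen after their values were seen. A few of the genes so chosen are not reported here. Alternatives changed the filter, the variance estimate, the scaling, sample weights, the samples, the threshold and the members, and corrections for transcript length and GC content were added after seeing the data.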

Additional observations from a re-analysis of the deposited data

How the results depend on the processing

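The cytosolic and mitochondrial medians stayed negative under every alternative run, with the cytosolic one at -0.088 after quantile normalization and -0.090 after transcript length correction, and the mitochondrial one at -0.053 after that correction. The cytosolic minus mitochondrial median was 0.042 after quantile normalization and -0.036 after length correction, and without single samples it ranged between -0.16 and -0.034. The large minus small cytosolic median ranged between -0.0087 and 0.068 there.

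Calls moved most. With no filter on low values, 181 genes of all rose and 25 fell, with 0 cytosolic, 0 mitochondrial and 0 companion calls in either direction. With a mean rlog of at least 6, 878 genes rose and 1 companion gene rose. Without the variance trend and after length correction 0 cytosolic and 0 mitochondrial genes fell, and after the correction 1 companion gene rose. A robust variance gave 3 of 77 cytosolic and 2 of 77 mitochondrial calls, against 5.46% of all tested genes called lower. Adding proteins with other names gave 2 and 2, against 4.85% of all tested genes called lower. GC correction gave 2 of 77 and 2 of 77. Quantile normalization gave 0 cytosolic calls, 1 mitochondrial call (Mrpl14, not Mrpl33) and 1 companion rise. For GC correction and quantile normalization the share over all tested genes is not given here, so their counts cannot be set against it. At an adjusted p under 0.01 in limma, 268 genes fell, with 0 cytosolic, 0 mitochondrial, 0 rising and 1 falling companion call. At 0.1, 1028 of all 13528 tested genes fell, with 14 of 77 cytosolic, 3 of 77 mitochondrial and 16 companion falls. Without single samples, falls ranged from 324 to 1222 over all genes, from 0 to 32 cytosolic, from 0 to 7 mitochondrial and from 1 to 25 companion genes, and companion rises from 0 to 2. The causes were not tested.

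Signs of differences turned for Mrpl23 (0.046), Mrps36 (0.070) and Rps27l (0.015) after length correction; for Mrpl49 (-0.020), Mrps27 (-0.035), Rpl4 (0.13), Rps4l (-0.083) and Rpsa (0.0048) after quantile normalization; and for Mrps27 (-0.0020) and Rpl7l1 (-0.0024) after median centring. Without single samples the values ranged from -0.073 to 0.11 for Mrpl4, from -0.045 to 0.068 for Mrpl49, from -0.049 to 0.065 for Mrps27, from -0.016 to 0.031 for Rpl7l1 and from -0.086 to 0.15 for Rps4l. No paired analysis was possible because the replicate numbers follow the order of entries and mark no shared animal or batch. With rlog values only, depth cannot be stated, and differences of weakly expressed genes are understated.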
